A study of Mus musculus with 6 samples.

Results

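The Rab GTPases were followed across 6 Affymetrix MOE430A arrays of mouse dendritic cells, 1 array per group. Members were taken by name: every non-control probe set (the set of short probes that reports 1 transcript) with a single annotated symbol made of Rab and a number. Of 22626 non-control probe sets, 103 met that rule, and they named 54 genes. The rule also took in 8 probe sets of 4 genes that are not Rab GTPases (Rab3il1, Rab3gap2, Rab5if and Rab26os), which are described apart, and it left out 2 probe sets, those of Rab3ip and Rab11fip5. The remaining 95 probe sets stood for 50 Rab GTPase genes. A probe set counted as measured when its signal was above 53.5 (the floor, which 40% of non-control signals lie under) on at least 2 of the 6 arrays. On that count 71 probe sets of 41 Rab GTPase genes were measured, among 14906 measured probe sets in all. Each gene was read from its brightest measured probe set.

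All 6 groups shared 1 kind of cell: dendritic cells grown from hind leg bone marrow of a 13-week-old female mouse carrying a CAR transgene, which in this vector system is the receptor that lets adenovirus enter. Which promoter drives the transgene is not stated in the labels. Progenitor expansion took 7 days, and differentiation in 250 U/ml GM-CSF another 7 days. The groups were untreated cells, cells with TNFa (50 ng/ml for 4 h), cells transduced with the adenovirus AdOVA, AdOVA with TNFa, cells transduced with AdIkBa-SR, and AdIkBa-SR with TNFa. Both viruses were given at 1500 particles per cell for 2 h, followed by 18 h of culture. IkBa super-repressor proteins hold NF-kB in the cytoplasm, and AdOVA served as the virus control. In RNA from whole cultures, fewer cells of a type and less RNA per cell cannot be told apart.

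Rab proteins are small GTPases that mark the membranes of the secretory and endocytic routes. Loaded with GTP by exchange factors of the DENN and related families, a Rab recruits tethers, motors and sorting proteins to its compartment, and GTPase-activating proteins of the TBC family switch it off. In dendritic cells these routes carry captured antigen from phagosome to lysosome, bring peptide-loaded MHC molecules to the surface, and recycle receptors. Rab1 and Rab2 act between the endoplasmic reticulum and the Golgi, Rab5 on early endosomes, Rab4 and Rab11 in recycling, Rab7 on late endosomes, and Rab8 and Rab27a in delivery to the plasma membrane.

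RefSeq sequence upstream of the start was at hand for 36 of the 41 measured Rab genes (build GRCm38.p6, 250 bases before each listed start). Windows of 3 genes are shown: Rab12, because it was the only Rab gene that passed the test in any comparison; Rab5a, because it holds more motif matches than any other gene of the family; and Rab15, because it moved most over the arrays and holds a match to the NF-kB motif. Capitals mark motif matches on either strand. The Rab12 window, chr17:66519671-66519920 on the minus strand, held none of the 4 motifs searched.
Rab12: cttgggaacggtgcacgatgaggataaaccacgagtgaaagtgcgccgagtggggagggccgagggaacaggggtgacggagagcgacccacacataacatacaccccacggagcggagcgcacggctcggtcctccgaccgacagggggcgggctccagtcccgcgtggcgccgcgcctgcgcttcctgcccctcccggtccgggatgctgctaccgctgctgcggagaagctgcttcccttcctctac
The Rab5a window, chr17:53478984-53479233 on the plus strand, held TCACGTG at -235, -96 and -95, the last a pair read from both strands of the same letters, and a GC box at -82.
Rab5a: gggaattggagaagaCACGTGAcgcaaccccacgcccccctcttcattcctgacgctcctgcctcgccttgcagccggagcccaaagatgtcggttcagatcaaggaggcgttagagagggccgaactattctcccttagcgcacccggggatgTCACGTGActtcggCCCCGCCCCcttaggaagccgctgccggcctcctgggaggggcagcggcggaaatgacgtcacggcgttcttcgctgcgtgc
Rab15 has several listed starts. Of its windows, only chr12:76818375-76818624 on the minus strand, shown here, held a motif match, a kappaB match at -96.
Rab15: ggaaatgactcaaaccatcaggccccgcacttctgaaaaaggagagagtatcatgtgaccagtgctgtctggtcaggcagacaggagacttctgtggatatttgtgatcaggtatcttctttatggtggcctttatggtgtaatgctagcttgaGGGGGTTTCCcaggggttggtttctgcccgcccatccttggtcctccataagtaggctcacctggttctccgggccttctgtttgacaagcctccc
The kappaB letters, GGG and TTTCC with 2 free bases between them, were in windows of 3 of the 36 genes (Rab15, Rab28 and Rab9) and in 1.65% of the 27025 genes in the table (1.41% of all 32851 windows of this length). The E-box TCACGTG, a motif of lysosomal genes, was in windows of 3 genes (Rab21, Rab23 and Rab5a) and in 3.58% of all genes (3.13% of windows). The GC box GGGGCGGGG was in windows of 6 genes (Rab20, Rab28, Rab3d, Rab40c, Rab5a and Rab8b) and in 11.79% of all genes (10.4% of windows). The interferon response core, GAAA and GAAA with 2 free bases between, was in none of the 36 and in 3.46% of all genes (2.98% of windows). A gene with several windows counts once if any of them holds the letters. A match describes letters only. The 47 windows of measured Rab genes had a median GC content of 60.8%, against 52.4% over all windows.

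The arrays had been scaled to a common average, and 57.92% to 63.44% of probe sets on each were above the floor. The untreated, TNFa and AdOVA arrays shared 1 recorded hybridization time, here called round 1, and the other 3 shared another, round 2. The AdIkBa-SR array was also washed differently, with 0 cycles recorded for each wash, against 10 and 4 elsewhere, and a first stain of 420 s, against 600 s. The 18S 5' control signal reached 2601.1 on the AdOVA+TNFa array and lay between 120.3 and 537.0 on the other 5. Of 12 dendritic cell markers 11 were measured (Flt3 was not), with a summed signal of 6061 to 8084 per array, and macrophage markers summed to 12079 to 17605. T cell markers were nearly silent: 1 of 6 was measured, and Cd3d, Cd3e and Cd3g were not. Granulocyte markers, 9 of 9 measured, summed to 9635 on the AdOVA+TNFa array and to 23322 and 25031 on the AdIkBa-SR arrays, against 12804 to 19883 on the other 3. Megakaryocyte markers, 5 of 5 measured, went from 3156 on the AdOVA+TNFa array to 10645 on the AdIkBa-SR array. The part of these differences in the Rab results was not tested.

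The Rab genes ranged over the 6 arrays about as far as genes in general. The highest signal over the lowest, with signals under the floor set to the floor, had a median of 1.70-fold over the 41 genes, and 29 genes (70.7%) stayed under 2-fold. Over all 8934 measured genes the median was 1.77-fold and 66.3% stayed under 2-fold. The steadiest were Rab3d, of regulated granule exocytosis, with a range of 1.12-fold, and Rab31, which works between the Golgi and endosomes, with 1.15-fold. Rab15, of early and recycling endosomes, had the widest range, 7.63-fold, which is a bound since 1 array was under the floor. The Rab genes were bright, with a median signal of 315.0 against 164.0 over all genes, so their ranges and those of all genes come from different signal levels.

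**Figure D1:**
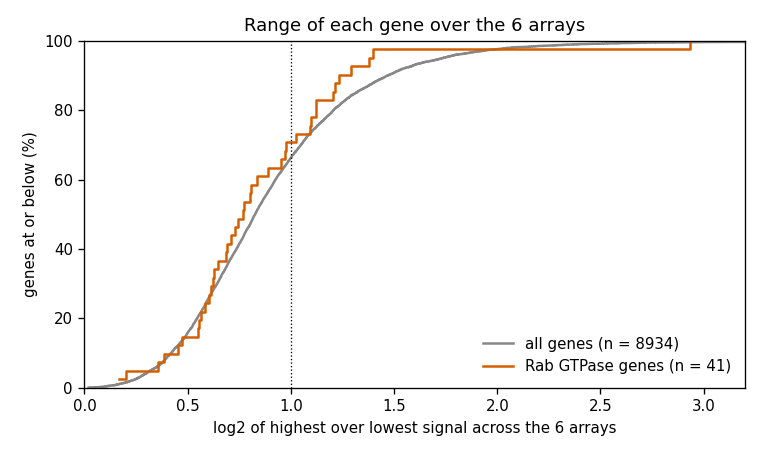
Cumulative share of genes (y axis, %) by the range over the 6 arrays (x axis, log2 of the highest over the lowest signal), for 41 Rab GTPase genes in orange and 8934 measured genes in grey, cut at the right edge. The dotted line marks 2-fold: 70.7% of Rab genes and 66.3% of all genes lie to its left.

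**Figure D2:**
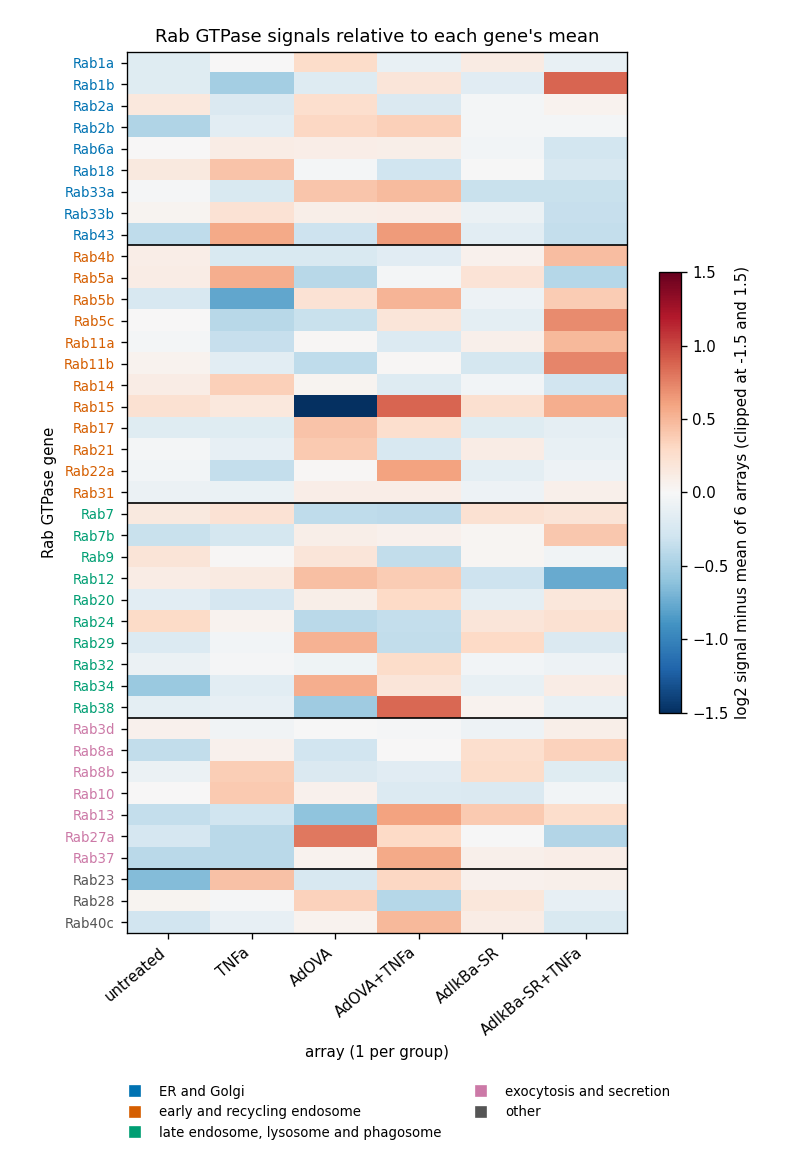
Signals of the 41 measured Rab GTPase genes on each array, as log2 signal minus the gene's mean over the 6 arrays (colour, from -1.5 to 1.5), with genes ordered and coloured by role. Most cells are pale; Rab15 on the AdOVA array is the darkest blue, and Rab1b, Rab5c and Rab11b are red on the AdIkBa-SR+TNFa array.

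With 1 array per group, each factor was read in 2 separate pairs, made of 4 different arrays, and a limma model over all 6 arrays with 1 residual degree of freedom supplied standard errors and p-values adjusted by Benjamini-Hochberg over the 14906 probe sets. Its spread is therefore mostly borrowed from other probe sets, and the p-values do not measure variation between cultures. For the 4 main contrasts the median 95% interval of a Rab gene was 0.56 either side on the log2 scale, a factor of 1.48. The standard errors ran from 0.22 to 0.45.

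The first question is what the control virus did. No Rab gene was at least 2-fold higher or lower with AdOVA in both pairs, where 1.97% of all genes were higher and 1.24% lower. limma called 0 of 41 Rab genes higher and 0 lower, against 4.11% and 3.45% of all genes. At an unadjusted p under 0.05, 7 were higher and 2 lower, against 12.9% and 10.1% of all genes. The 7 include Rab17 (13.0 and 13.5 in cells without virus) and Rab37 (48.2 and 52.4). These genes met the filter only through virus arrays. With their other signals set to the floor, they could not come out lower with AdOVA. The shares of all genes were counted under the same filter. In both pairs the difference had the same sign, positive for 17 genes (41.5%, all genes 36.7%) and negative for 7 (17.1%, all genes 26.8%). The 17 also include Rab17 and Rab37. The median of the mean difference was 0.14 on the log2 scale for the Rab genes and 0.07 for all genes. Of the 41, 22 stayed within 1.5-fold in both pairs (53.7%, all genes 53.0%).

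The second question is what differed between AdIkBa-SR and the control virus. Rab12 fell and was the only Rab gene to pass limma, so 0 of 41 were called higher and 1 lower, where 3.13% and 3.46% of all genes were called. None was 2-fold apart in both pairs, where 1.1% of all genes were higher and 1.61% lower. At an unadjusted p under 0.05 there were 3 higher and 4 lower, against 9.36% and 13.3%. The median of the mean difference was -0.05 for the Rab genes and -0.10 for all genes. Set against cells without virus, AdIkBa-SR gave 0 calls in either direction by limma (0.0448% of all genes higher, 0% lower). Cells without virus share no array with the AdOVA groups, but the AdIkBa-SR arrays are those of the comparison just given. By limma, 1 gene was higher and 1 lower at an unadjusted p under 0.05 (3.08% and 2.48% of all genes). There were 0 genes 2-fold apart in both pairs (0.168% and 0.0672%). Both AdIkBa-SR arrays were in round 2 and both arrays without virus in round 1, so these pairs cannot tell virus from round.

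The third question is the TNFa response. No Rab gene was 2-fold apart in both the pair without virus and the pair with AdOVA (0.0784% of all genes higher, 0.179% lower), and limma called 0 in either direction (0.0112% and 0% of all genes). At an unadjusted p under 0.05, 4 were higher and 0 lower, against 4.04% and 5.59% of all genes. Within 1.5-fold in both pairs were 33 Rab genes, or 80.5%, against 66.6% of all genes. In AdIkBa-SR cells, where TNFa has a single pair, Rab1b and Rab11b were at least 2-fold higher with TNFa and none was 2-fold lower, against 1.66% and 0.828% of all genes; limma called 0 of 41 there (0% of all genes in each direction), with 3 higher and 0 lower at an unadjusted p under 0.05 (3.07% and 1.59% of all genes). The difference between the TNFa response of AdIkBa-SR cells and that of the other cells was called by limma for 0 of 41 Rab genes (0% of all genes in each direction). At an unadjusted p under 0.05 it was higher for 1, Rab1b, and lower for 2, Rab43 and Rab5a, against 2.5% and 1.73% of all genes. The AdIkBa-SR array was washed and stained differently from the AdIkBa-SR+TNFa array. In that pair, and in the difference of responses that uses it, TNFa cannot be told apart from these settings.

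**Figure D3:**
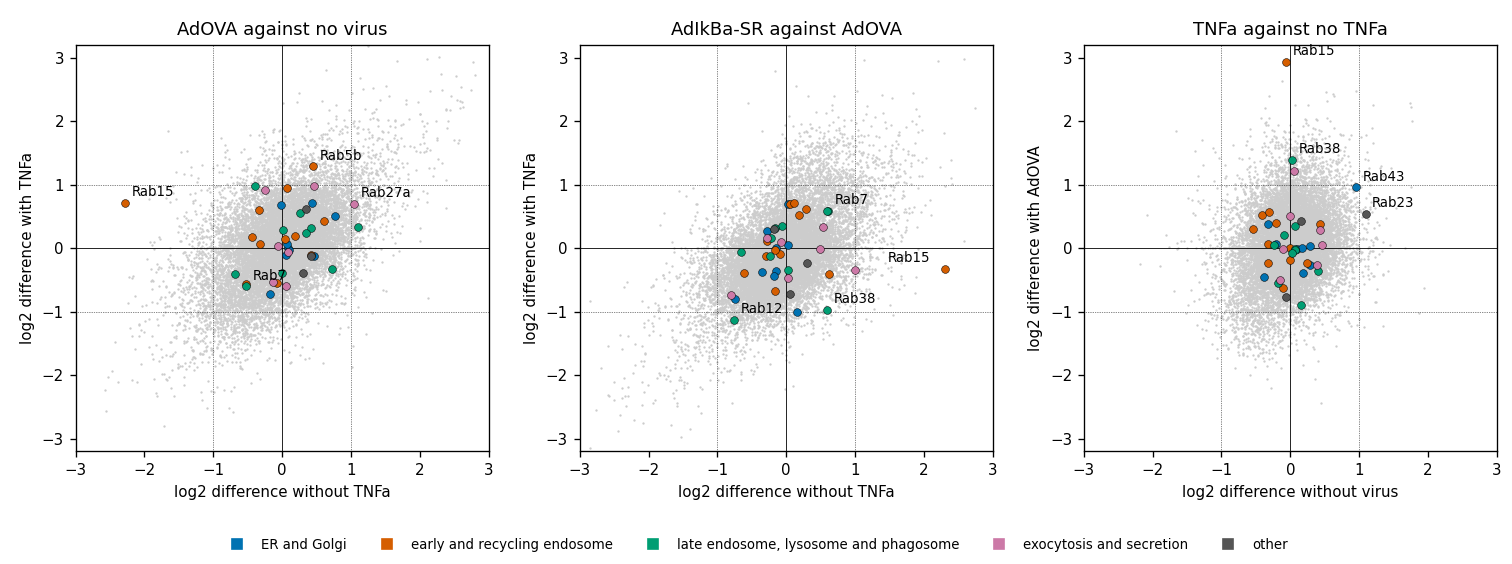
Log2 difference in 1 pair (x axis) against the pair that shares no array with it (y axis), for AdOVA against no virus, AdIkBa-SR against AdOVA, and TNFa against no TNFa. Coloured points are the 41 Rab genes by role, grey points all measured probe sets (a few lie outside the axes), and dotted lines mark 2-fold; no Rab gene lies past 2-fold in the same direction on both axes, and Rab15 lies far out on 1 axis only.

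The 9 measured genes of the endoplasmic reticulum and Golgi held the brightest Rab of that role, Rab1a, which tethers vesicles between these compartments. For every gene below, the signals are those without and then with TNFa. Rab1a stood at 3175.7 and 3609.3 in cells without virus, 4352.6 and 3325.0 under AdOVA and 3919.1 and 3333.4 under AdIkBa-SR. Its highest array was AdOVA without TNFa, and the groups overlapped. A second, dimmer Rab1a probe set was lowest on both AdOVA arrays instead, at 306.9 and 309.9 against 362.0 to 587.7 on the other 4, so the 2 probe sets did not move together.

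Rab2b, a relative of Rab2a in Golgi transport, stood at 62.8 and 76.8 in cells without virus, 106.5 and 109.6 under AdOVA and 83.8 and 84.0 under AdIkBa-SR. Its 4 virus arrays lay above both arrays without virus, and the AdOVA arrays were highest. The limma difference with AdOVA was 0.64 on the log2 scale, SE 0.29, adjusted p 0.19. Averaged over its 3 measured probe sets the difference was 0.21. Rab18, found on lipid droplets and the endoplasmic reticulum, stood at 899.7 and 1093.4 in cells without virus, 794.4 and 660.3 under AdOVA and 808.2 and 685.6 under AdIkBa-SR. All 4 virus arrays were below both arrays without virus, and the AdOVA difference was -0.45, SE 0.24, adjusted p 0.27 (limma). A second Rab18 probe set did not show this, at 183.9 and 242.5, 183.2 and 256.8, and 227.6 and 281.3, with an AdOVA difference of 0.04.

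Rab33a, close to the Golgi and autophagy GTPase Rab33b, was dim. It stood at 66.6 and 57.5 in cells without virus, 89.9 and 93.7 under AdOVA and 26.3 and 49.9, both under the floor, under AdIkBa-SR. The AdIkBa-SR arrays were the lowest and the AdOVA arrays the highest, so AdIkBa-SR was at least 1.68-fold below AdOVA without TNFa and at least 1.75-fold below it with TNFa. The limma difference, -0.78 with SE 0.25, had an adjusted p of 0.063. Rab2a, of retrograde Golgi traffic, stood at 761.0 and 583.7 in cells without virus, 808.6 and 587.2 under AdOVA and 667.6 and 704.7 under AdIkBa-SR. It was lower with TNFa in the first 2 of these pairs and not in AdIkBa-SR cells. Its TNFa difference was -0.42, SE 0.24, adjusted p 0.54 (limma), and -0.13 averaged over its 4 probe sets.

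Rab43, a Golgi Rab that has been tied to cross-presentation in dendritic cells, had 2 probe sets that disagreed. The brighter stood at 126.4 and 245.0 in cells without virus, 132.4 and 257.3 under AdOVA and 147.6 and 128.7 under AdIkBa-SR. The TNFa and AdOVA+TNFa arrays stood above all others on this probe set. Its limma TNFa difference was 0.96, SE 0.32, 95% interval 0.29 to 1.62, adjusted p 0.22. The other probe set stood at 162.6 and 129.4, 182.8 and 212.7, and 130.0 and 173.1, and was lower with TNFa in cells without virus. Its limma TNFa difference was -0.06, SE 0.32, adjusted p 0.97. It was the brighter one on the untreated, AdOVA and AdIkBa-SR+TNFa arrays. The first probe set was thus read for the gene mainly through the TNFa and AdOVA+TNFa arrays, where it was high. Averaged over both, the TNFa difference was 0.45. The remaining genes of this role were Rab1b, Rab6a and Rab33b. Rab1b stood at 366.6 and 292.4, 362.3 and 470.8, and 369.6 and 759.8, highest on the AdIkBa-SR+TNFa array. Its TNFa difference in AdIkBa-SR cells, 1.04, rests on that 1 pair, whose arrays also differ in wash and stain, and was not called.

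Among the 12 measured genes of early and recycling endosomes, the 3 Rab5 forms, which drive fusion of early endosomes, did not run together. Rab5a stood at 845.7 and 1145.6 in cells without virus, 589.0 and 770.4 under AdOVA and 906.4 and 582.9 under AdIkBa-SR. It was lower with AdOVA in both pairs, but the lowest array was AdIkBa-SR+TNFa and the groups overlapped. The AdOVA difference was -0.55, SE 0.24, 95% interval -1.04 to -0.05, adjusted p 0.17 (limma). TNFa gave 0.41, adjusted p 0.56, in the cells without AdIkBa-SR, and -0.64, adjusted p 1.00, in AdIkBa-SR cells; the difference of those 2 responses, -1.05 with SE 0.41, had an adjusted p of 0.97.

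Rab5b stood at 115.4 and 79.3 in cells without virus, 158.1 and 194.1 under AdOVA and 128.8 and 177.2 under AdIkBa-SR. Every virus array was above both arrays without virus. The AdOVA difference was 0.87, SE 0.34, 95% interval 0.16 to 1.59, adjusted p 0.13 (limma). When probe sets had to be above the floor on all 6 arrays, which leaves fewer to test, its adjusted p was 0.035. Rab5c stood at 398.1 and 298.3 in cells without virus, 316.8 and 452.7 under AdOVA and 359.0 and 649.0 under AdIkBa-SR. Its AdIkBa-SR+TNFa array was highest, and the difference from AdOVA was 0.35, SE 0.27, adjusted p 0.48 (limma).

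Rab14, which moves between the Golgi and endosomes, was the brightest of this role. It stood at 1519.8 and 1803.6 in cells without virus, 1449.0 and 1226.9 under AdOVA and 1365.1 and 1151.1 under AdIkBa-SR. Both arrays without virus lay above all 4 virus arrays. The same held on 2 of the 4 other Rab14 probe sets. Of the rest, one read 276.7 on AdIkBa-SR+TNFa against 257.5 on TNFa. The other read 266.1 on AdOVA+TNFa against 230.7 on TNFa. Its 4 other probe sets gave AdOVA differences of -0.67 and -0.77, -0.25 and -0.52, -0.36 and -0.29, and -0.63 and 0.21 in the pairs without and with TNFa, so all but 1 of these 8 were negative.

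The recycling Rabs showed no called difference. Rab11a, of the recycling endosome, stood at 1156.4 and 924.9 in cells without virus, 1194.9 and 1021.3 under AdOVA and 1247.2 and 1652.1 under AdIkBa-SR. It was lower with TNFa in the first 2 pairs, difference -0.27, SE 0.24, adjusted p 0.73 (limma), and highest on the AdIkBa-SR+TNFa array. Neither held on its second probe set, which stood at 152.0 and 152.6, 159.8 and 212.7, and 131.1 and 167.5 and was highest on the AdOVA+TNFa array. Rab4b, of fast recycling, stood at 269.8 and 215.2, 215.4 and 225.0, and 263.7 and 346.4. Its AdIkBa-SR arrays were above the AdOVA arrays, with a difference of 0.46, SE 0.28, adjusted p 0.36 (limma). Rab11b, close to Rab11a, was likewise highest on the AdIkBa-SR+TNFa array, at 628.8 against 289.2 to 390.0 on the other 5.

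Rab21, which carries integrins through early endosomes, stood at 554.4 and 517.0 in cells without virus, 741.0 and 479.2 under AdOVA and 611.1 and 520.9 under AdIkBa-SR. It was lower with TNFa in every pair, and the fitted difference was -0.36, SE 0.25, adjusted p 0.63 (limma). On its second probe set, at 136.9 and 132.8, 246.3 and 183.8, and 108.2 and 178.6, the AdIkBa-SR cells went the other way. Rab17, known from transcytosis in epithelia, was above the floor only at 81.8 and 72.2 on the AdOVA arrays and at 55.3 on the AdIkBa-SR+TNFa array; the other 3 arrays read 12.8 to 13.5. With AdOVA it was at least 1.53-fold higher without TNFa and at least 1.35-fold higher with it, and limma on floored values gave 0.52, SE 0.22, adjusted p 0.16. With the signals in cells without virus set to the floor, this difference could not be negative. Rab15 stood at 260.2 and 248.4 in cells without virus, 49.8 and 408.0 under AdOVA and 263.6 and 324.8 under AdIkBa-SR. A single array, AdOVA without TNFa, set it apart, and its AdOVA differences of -2.28 and 0.72 had opposite signs.

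In the 10 measured genes of late endosomes, lysosomes and phagosomes, Rab12 carried the only call. Rab12 directs recycling receptors towards lysosomes. It stood at 349.0 and 355.6 in cells without virus, 442.0 and 421.5 under AdOVA and 261.5 and 192.2 under AdIkBa-SR. Both AdIkBa-SR arrays lay below all others and both AdOVA arrays above. The AdIkBa-SR pairs were 1.69-fold lower without TNFa and 2.19-fold lower with TNFa than AdOVA, and the limma difference was -0.95 on the log2 scale, SE 0.26, 95% interval -1.5 to -0.39, adjusted p 0.036. The pair with TNFa shares a hybridization round and wash settings. The direction was the same under every alternative fitted, but the adjusted p ranged from 0.011 to 0.41 and passed 0.05 in only 2 of them (a floor at the 50th percentile, and signals above the floor on all arrays). In an additive fit, with 1 TNFa response for all cells, it was 0.085 with all arrays, 0.41 without the AdOVA+TNFa array and 0.067 without the AdIkBa-SR array. Against cells without virus the AdIkBa-SR difference was -0.65, adjusted p 0.84, and AdOVA against no virus gave 0.29, adjusted p 0.54. Rab12 had 1 measured probe set. Summed granulocyte markers were highest on the 2 arrays where Rab12 was lowest. So were megakaryocyte markers (10645 and 10332, at most 8265 elsewhere) and mast cell and basophil markers (1940 and 1860, at most 1643 elsewhere). The part of these differences in the Rab12 result was not tested.

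Rab7, which drives fusion of late endosomes with lysosomes, was the brightest of this role. It stood at 2659.6 and 2785.9 in cells without virus, 1845.1 and 1832.9 under AdOVA and 2819.8 and 2748.1 under AdIkBa-SR. Both AdOVA arrays lay well below the other 4, which spanned a narrow range. The second probe set, at 1455.5 and 1769.2, 1082.8 and 1267.7, and 1985.5 and 1909.2, put the same 2 arrays lowest. On the brighter probe set the AdOVA pairs differed by -0.53 and -0.60 and the AdIkBa-SR pairs by 0.61 and 0.58; these share the AdOVA arrays. limma gave -0.57, SE 0.26, adjusted p 0.19 for AdOVA and 0.60, SE 0.26, adjusted p 0.17 for AdIkBa-SR against AdOVA, so neither passed. The AdOVA arrays lay in different hybridization rounds.

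Rab24, linked to autophagy, stood at 399.4 and 337.9 in cells without virus, 247.5 and 256.1 under AdOVA and 371.8 and 384.0 under AdIkBa-SR. As with Rab7, both AdOVA arrays were below the other 4. The differences were -0.55, adjusted p 0.22, for AdOVA and 0.59, adjusted p 0.19, for AdIkBa-SR against AdOVA (limma, SE 0.26 for both). A second Rab24 probe set did not separate them, at 245.0 and 220.7, 241.4 and 193.8, and 280.9 and 242.5. Rab9, which returns mannose 6-phosphate receptors from late endosomes to the Golgi, stood at 360.2 and 319.9, 358.0 and 243.8, and 320.5 and 302.9. It was lower with TNFa in every pair, by a fitted -0.36, SE 0.27, adjusted p 0.66 (limma). Rab38, of lysosome-related organelles, stood at 70.0 and 71.2, 49.3 and 140.7, and 80.3 and 71.5. Its lowest and highest arrays were the 2 AdOVA arrays. The phagosome Rabs Rab20, Rab34 and Rab7b are given with the virus arrays below, and Rab29 and Rab32, close relatives of Rab38, gave no call.

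**Figure D4:**
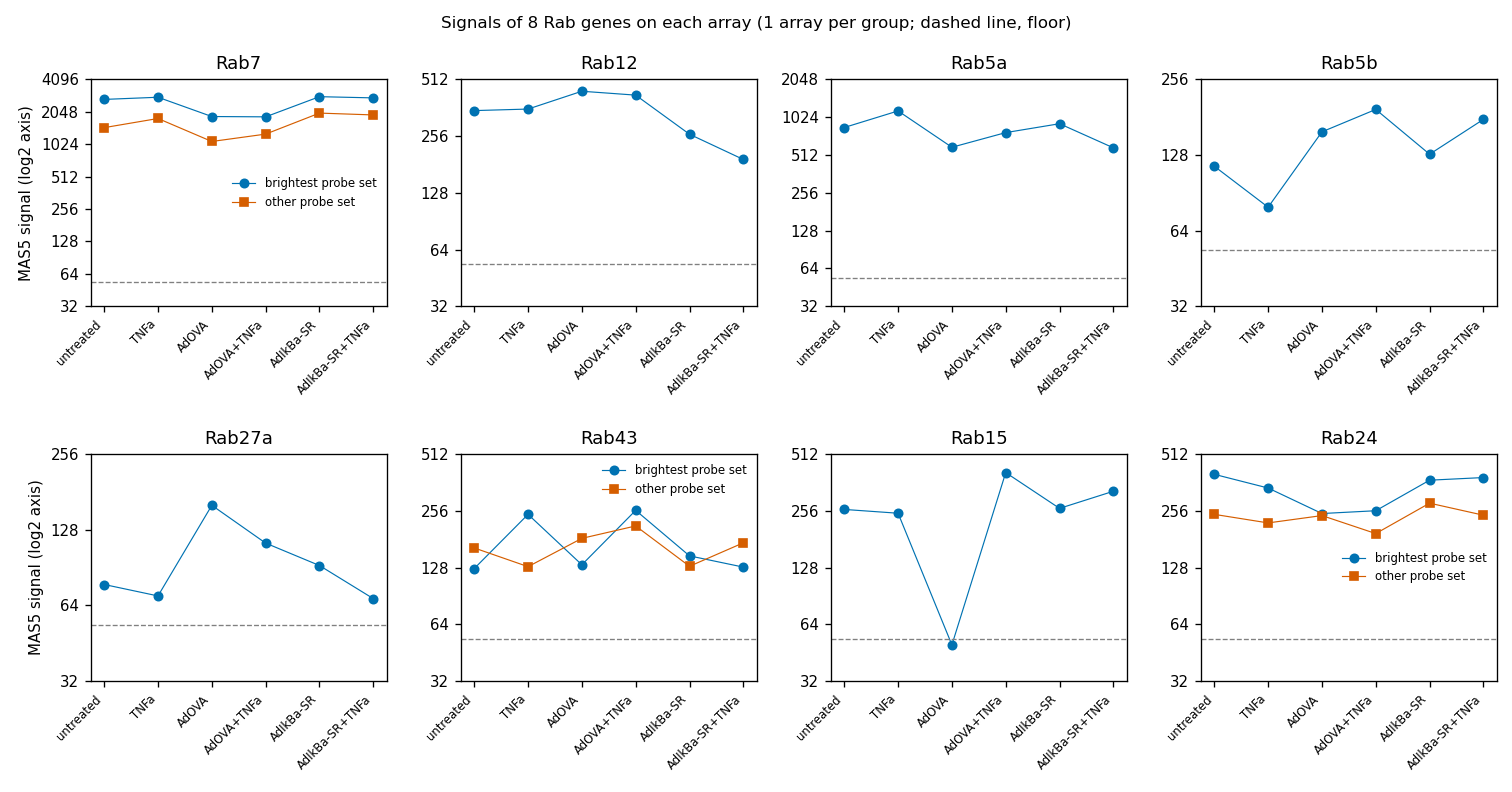
MAS5 signals (y axis, log2 scale, a different range in each panel) of 8 Rab genes on the 6 arrays (x axis), 1 point per array and probe set, with the floor dashed; the lines join points of a probe set and carry no order. Rab7 is lowest on both AdOVA arrays on both probe sets, Rab12 is lowest on both AdIkBa-SR arrays, and the probe sets of Rab43 diverge.

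The 7 measured genes of exocytosis and secretion were led in brightness by Rab8b, which with Rab8a sends vesicles to the plasma membrane. Rab8b stood at 2205.1 and 3023.4 in cells without virus, 2015.0 and 2085.7 under AdOVA and 2828.4 and 2058.2 under AdIkBa-SR. The AdOVA difference was -0.33, SE 0.26, adjusted p 0.47 (limma), and the groups overlapped. Rab8a stood at 686.5 and 926.9, 725.3 and 889.1, and 1052.1 and 1124.6. Both AdIkBa-SR arrays were highest, yet the difference from AdOVA was 0.44, SE 0.24, adjusted p 0.28, and TNFa gave 0.36, SE 0.24, adjusted p 0.62 (limma).

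Rab27a, which docks lysosome-related and secretory organelles and limits acidification of the phagosome in dendritic cells, stood at 77.5 and 69.8 in cells without virus, 160.0 and 113.2 under AdOVA and 92.2 and 68.1 under AdIkBa-SR. Both AdOVA arrays were above the other 4. The AdOVA difference was 0.87, SE 0.31, 95% interval 0.23 to 1.51, adjusted p 0.087, and AdIkBa-SR against AdOVA gave -0.76, SE 0.31, adjusted p 0.14 (limma). With a floor at the 50th percentile the AdOVA adjusted p was 0.046, and with signals above the floor on all arrays 0.032. The TNFa difference was -0.32, SE 0.31, adjusted p 0.76. Rab37, of mast cell granules, stood at 48.2 and 52.4, both under the floor, in cells without virus, 73.6 and 104.9 under AdOVA and 74.9 and 76.1 under AdIkBa-SR. All 4 virus arrays were above both others, and AdOVA was at least 1.38-fold higher without TNFa and at least 1.96-fold higher with it, with a limma adjusted p of 0.10. As with Rab17, the floored values in cells without virus meant that the AdOVA difference could not be negative. Rab3d, Rab10 and Rab13 gave no call.

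The 3 remaining genes were outside these routes or without a settled one. Rab40c, which carries a SOCS box of ubiquitin ligases and was the brightest of them, stood at 220.3 and 246.5 in cells without virus, 279.9 and 376.1 under AdOVA and 290.3 and 228.8 under AdIkBa-SR. Its TNFa difference was 0.29, SE 0.28, adjusted p 0.76 (limma). Rab23, of Hedgehog signalling, stood at 19.1, under the floor, and 114.0 in cells without virus, 71.4 and 104.2 under AdOVA and 88.4 and 89.0 under AdIkBa-SR. TNFa was at least 2.13-fold higher without virus and 1.46-fold higher with AdOVA, with a limma difference of 0.82, SE 0.30, adjusted p 0.26. Rab28, a cilium Rab, gave no call.

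Groupings of whole arrays, chosen after the values were seen, are given here as values. All 4 virus arrays stood above both arrays without virus for 7 of 41 Rab genes, where 6.54% of all genes did, and below them for 2, Rab14 and Rab18, where 7.35% of all genes did. The 7 were Rab20, Rab2b, Rab31, Rab34, Rab37, Rab5b and Rab7b. Both arrays without virus were in round 1, and every virus array except AdOVA without TNFa was in round 2. This grouping therefore largely follows the round as well. Rab20, a phagosome Rab induced by interferon in macrophages, stood at 170.8 and 160.5 in cells without virus, 203.5 and 235.1 under AdOVA and 172.4 and 215.1 under AdIkBa-SR, so the groups were separated by a narrow margin. Rab7b, of late endosomes and Toll-like receptor turnover, stood at 224.5 and 236.5, 301.1 and 294.8, and 289.2 and 375.7, a wider gap. Rab34, which positions lysosomes, stood at 34.4, under the floor, and 70.5, 114.4 and 88.9, and 72.6 and 85.2. A second Rab34 probe set had its 2 lowest arrays among the virus arrays, at 60.7 and 82.6, 47.4 and 112.1, and 44.4 and 75.4. Of the 5 other measured probe sets of these 7 genes, 1 showed the pattern, that of Rab7b. It did so by a very small margin, 85.5 on the AdOVA array against 85.1 on the untreated array. Rab31 was also separated narrowly, at 342.1 on the AdIkBa-SR array against 337.3 on the untreated array. Rab37 was above the floor only on the 4 virus arrays and so entered the count through them; the count is a description of these arrays. It was 7 of 41 with equal medians (7.48% of all genes), 8 of 41 with quantile normalization (7.09%), 5 of 39 with a floor at the 50th percentile (6.3%), without Rab34 and Rab37, and 8 of 41 without the AdIkBa-SR array (13.0%). Both AdOVA arrays stood above the other 4 for 8 genes (Rab12, Rab17, Rab22a, Rab27a, Rab2b, Rab31, Rab33a and Rab34), where 22.4% of all genes did, and below for Rab24 and Rab7, where 11.4% did. Other measured probe sets of these genes showed the same for Rab17 and Rab7 and not for Rab22a, Rab2b, Rab31, Rab34 and Rab24. That of Rab17 was above the floor only on the AdOVA arrays, at 73.6 and 56.0, so its pattern followed from the filter. The brightest Rab17 probe set also entered only with an AdOVA array above the floor. Without the AdOVA+TNFa array these counts were 13 and 7, where 34.6% and 22.6% of all genes did.

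The proteins that load, switch off or read Rabs were followed by a list of 101, of which 67 were on the array with a single symbol and 58 were measured. Read from the brightest probe set of each, 1 was called lower with AdOVA (3.45% of all genes were) and 0 in any other contrast. It was Myo5a, a myosin motor that Rab27a recruits to organelles, at 371.8 and 718.3 in cells without virus, 256.8 and 211.0 under AdOVA and 526.2 and 362.4 under AdIkBa-SR. Both AdOVA arrays were the lowest, and the limma difference was -1.15, SE 0.29, adjusted p 0.022. Its second probe set, at 482.4 and 664.1, 146.1 and 168.7, and 572.9 and 372.9, gave -1.85, adjusted p 0.00021. That dimmer probe set also passed for AdIkBa-SR against AdOVA, at 1.56, SE 0.26, adjusted p 0.0015 (limma), where the brighter one gave 0.91, SE 0.29, adjusted p 0.069. The brighter probe set's adjusted p was between 0.00082 and 0.66 over the alternatives. With TNFa, 30 of the 58 (51.7%) were higher in both pairs, where 27.0% of all genes were, and 6 (10.3%) were lower, where 25.1% were; the median differences in the pairs without virus and with AdOVA were 0.14 and 0.19, where those of all genes were 0.00 and 0.01. With equal medians these were 0.12 and 0.10, against 0.00 and -0.05 for all genes. In AdIkBa-SR cells, where the TNFa pair also differs in wash, the median was 0.00 under both scalings, for the list and for all genes. None of the 58 passed limma for TNFa (0.0112% of all genes higher, 0% lower), and 5 were higher and 0 lower at an unadjusted p under 0.05, against 4.04% and 5.59% of all genes.

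At the edge of the floor, 3 Rab GTPase probe sets were above it on exactly 2 arrays and 2 on a single array. Inside were a second probe set of Rab17 (33.8 to 73.6), one of Rab22a (26.7 to 79.2) and one of Rab40c (27.9 to 84.8). Outside were one of Rab27a (8.5 to 68.3) and the only one of Rab27b to reach 53.5 on any array (4.1 to 57.9). The 9 genes not measured were Rab3a, Rab3b, Rab3c, Rab4a, Rab6b, Rab25, Rab27b, Rab30 and Rab40b. Of the other genes that the naming rule took in, Rab5if stood at 1728.5 and 1298.6 in cells without virus, 1775.7 and 1277.1 under AdOVA and 1439.0 and 2178.2 under AdIkBa-SR. It was lower with TNFa in the first 2 pairs and higher in AdIkBa-SR cells. Rab3gap2 ran from 32.6 to 72.8 and Rab3il1, an exchange factor, from 15.3 to 96.8, while Rab26os was not measured.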

How the data were processed

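Signals of 6 arrays were used, 1 per group, with groups taken from the sample titles. The authors deposited 1 linear intensity per probe set, which the submitters' processing notes credit to MAS5, a program that scales arrays to a common average. The 2% trimmed mean was equal to within 1.0001-fold, so no rescaling was done. Gene names came from the platform annotation. Of 22626 non-control probe sets, 20380 had 1 symbol, 691 several and 1555 none.

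Signals under 53.5 were set to that floor and log2 values taken, which compresses differences of dim genes. Folds with an array under it are bounds, written "at least". limma 3.58.1 in R 4.3.3 fitted 5 coefficients (levels of the 3 virus states, 1 TNFa response for untransduced and AdOVA cells together, and 1 for AdIkBa-SR cells) with a variance trend, and a call needed an adjusted p under 0.05. AdIkBa-SR contrasts are averaged over both TNFa states. The fit was run on simulated data with independent noise of a common spread, for AdOVA against no virus only. Differences were put into bright probe sets alone, and no round or wash differences were simulated. That run therefore does not vouch for the p-values given here. With the probe sets of a gene differing, counts use its brightest one.

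Genes were named if called by limma, brightest in their role, among the 5 highest or 5 lowest by the smaller of both pair differences for AdOVA, AdIkBa-SR or TNFa, or if their probe sets disagreed. Rab1b, Rab11b, Rab15, Rab38, Rab20, Rab34 and Rab7b were named after their values were seen. The members, roles and gene lists were chosen with earlier results of these data known. Alternatives were the scaling, the floor, the filter, the probe set rule, the fit, left-out arrays and the thresholds.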

Additional observations from a re-analysis of the deposited data

Results flagged for a closer look

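2 Rab genes moved in opposite directions under the same contrast without and with TNFa, by at least 1.5-fold each way. Rab15 differed by -2.28 on the log2 scale between AdOVA and untreated cells, and by 0.72 between AdOVA with TNFa and TNFa alone. Rab38 differed by 0.59 between AdIkBa-SR and AdOVA without TNFa, and by -0.98 with TNFa. With 1 array on each side, these differences were not tested. For both genes the AdOVA array without TNFa was under the floor, so the first value of each is a bound.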

How the results depend on the processing

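Directions of the named differences held except as given here. The 1 Rab gene called lower with AdIkBa-SR against AdOVA, Rab12, became 0 with equal medians, quantile normalization, a floor at the 25th percentile, no filter on dim probe sets, an additive fit, that fit with the hybridization round as a block, the additive fit when the AdOVA+TNFa or the AdIkBa-SR array was left out, and no variance trend, and became 2 at an adjusted p under 0.1. Genes called higher with AdOVA went from 0 to 1 with a floor at the 50th percentile, and to 2 with signals above the floor on all arrays or at an adjusted p under 0.1. With no filter, 1 gene, Rab27b, was called lower with TNFa in AdIkBa-SR cells. Its signals there were 57.9 without TNFa and 29.2 with it, and every array but the first of these was under the floor. With floored values the fall was only from 57.9 to the floor of 53.46. That call rests on 1 pair and on 1 signal just above the floor, so no TNFa response is read from it. At 1.5-fold in both pairs, 1 gene was higher with AdOVA, 3 were lower with AdIkBa-SR against AdOVA and 1 was higher with TNFa, where 2-fold gave 0. The shares of all genes at these changed settings are not given here. These counts therefore show only how the calls depend on the settings, not whether Rab genes pass more often than others. The TNFa differences of Rab5a (0.41), Rab40c (0.29) and Rab11a (-0.27) changed sign in 2 fits. They were -0.1, -0.09 and 0.04 under both the round block and the omission of the AdOVA+TNFa array. Both fits use 1 TNFa response for all cells, averaged over the pair without virus and the AdIkBa-SR pair. Those pairs gave 0.44 and -0.64 for Rab5a, 0.16 and -0.34 for Rab40c, and -0.32 and 0.41 for Rab11a. Only the AdOVA pair spans both rounds, so the round block takes no TNFa value from it. The 2 fits are therefore not separate checks. No limma count was made for the mean over probe sets. No paired analysis was possible because, with 1 array per group, no replicate numbers tie samples across groups; the pairs and the round block used here join different groups. The wash settings and the AdIkBa-SR array cannot be told apart. Dim genes under the floor limit what could be measured.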
